A study of Mus musculus with 4 samples.

Results

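The direct and indirect pathway neurons of the normal mouse striatum were compared by RNA sequencing of D2 against D1 medium spiny neurons from wild-type (WT) mice. Members of the comparison were all genes that reached 5 CPM (their counts set to a common library total) in the D1 WT or the D2 WT library, 10923 of the 37620 Ensembl gene identifiers measured. Both WT groups were male FVB/NJ littermates of BACHD mice, 5 to 6 months old, without the BACHD transgene. D1 WT cells carried the Drd1-EGFP bacterial artificial chromosome (BAC) reporter and D2 WT cells the Drd2-EGFP BAC reporter, so cell type and reporter line cannot be told apart. GFP-positive striatal cells were sorted by flow cytometry and pooled from 4 animals, 150000 cells per animal, into 1 library per group. The sample titles give the region as dStr, read here as dorsal striatum. The series also holds a D1 BACHD and a D2 BACHD library, 1 pool each, from the same reporter lines crossed to hemizygous BACHD mice. BACHD is a Huntington's disease model that expresses full-length mutant huntingtin with 97 glutamines from a BAC under huntingtin's own regulatory sequence. That pair shares no library with the WT pair, and its values are set beside those WT values that the results turn on. For each named gene that passed in WT and not in BACHD, the BACHD value is given.

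Medium spiny neurons are the GABA-releasing output cells of the striatum. Direct pathway neurons project to the substantia nigra pars reticulata and the internal pallidum, carry the dopamine receptor D1, which raises cAMP, and make dynorphin and substance P. Indirect pathway neurons project to the external pallidum, carry the dopamine receptor D2, which lowers cAMP, together with an adenosine receptor that raises it, and make enkephalin. Dopamine therefore acts on the pathways in opposite senses, and the genes that tell the pathways apart include receptors, peptides, channels and the transcription factors that set up each type.

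Levels are given as CPM of the estimated counts after TMM scaling, a library-wide factor, and differences as log2 ratios of D2 over D1, so that a positive value is higher in D2 cells. With 1 library per side no test of the WT difference was possible. A gene passed when one library stood at least 2-fold above the other and a ratio of 1 lay outside the 95% counting interval (exact, from the binomial share of the summed counts), with counts under 3 set to 3. That interval covers counting error only, not the spread between pools. A test was available only for the cell type term over all 4 libraries (edgeR's quasi-likelihood test with a genotype term, 1 residual degree of freedom), which includes the WT libraries and rests on both genotypes.

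Estimated counts summed to 41684397 and 44523622 in the WT pair (D1, D2) and to 41325647 and 43857032 in the BACHD pair, and 3 counts corresponded to 0.0720 and 0.0674 CPM in the WT pair. Mitochondrially encoded genes took 5.87% of D1 WT counts, the lowest share of the 4 libraries, and 8.37% of D2 WT counts. Of the members, 10463 reached 5 CPM in both WT libraries, 136 only in D2 and 324 only in D1. Kif26b was the last gene inside the limit, with 5.01 CPM before TMM scaling in its higher library, and Zfp873 the first outside, with 4.99.

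The labels held at the defining markers. Drd2, the dopamine receptor of the indirect pathway, stood at 20.2 and 2095 CPM in D1 and D2 WT, and at 20.4 and 2033 in D1 and D2 BACHD. Penk, which encodes proenkephalin, stood at 121.1 and 8318 CPM in D1 and D2 WT and at 105.5 and 7863 in the BACHD pair. Drd1 stood at 914.0 and 18.4 CPM in D1 and D2 WT and at 816.4 and 13.3 in the BACHD pair. Pdyn, which encodes prodynorphin, stood at 261.6 and 0.874 CPM and at 321.5 and 0.443. In each of the 4 genes both libraries of one cell type lay far from both libraries of the other. The lower WT library held 0.964% of the higher for Drd2, 1.46% for Penk, 2.02% for Drd1 and 0.334% for Pdyn. Less of a transcript per cell and fewer cells carrying it cannot be told apart in pooled cells, here or in the results that follow.

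**Figure D1:**
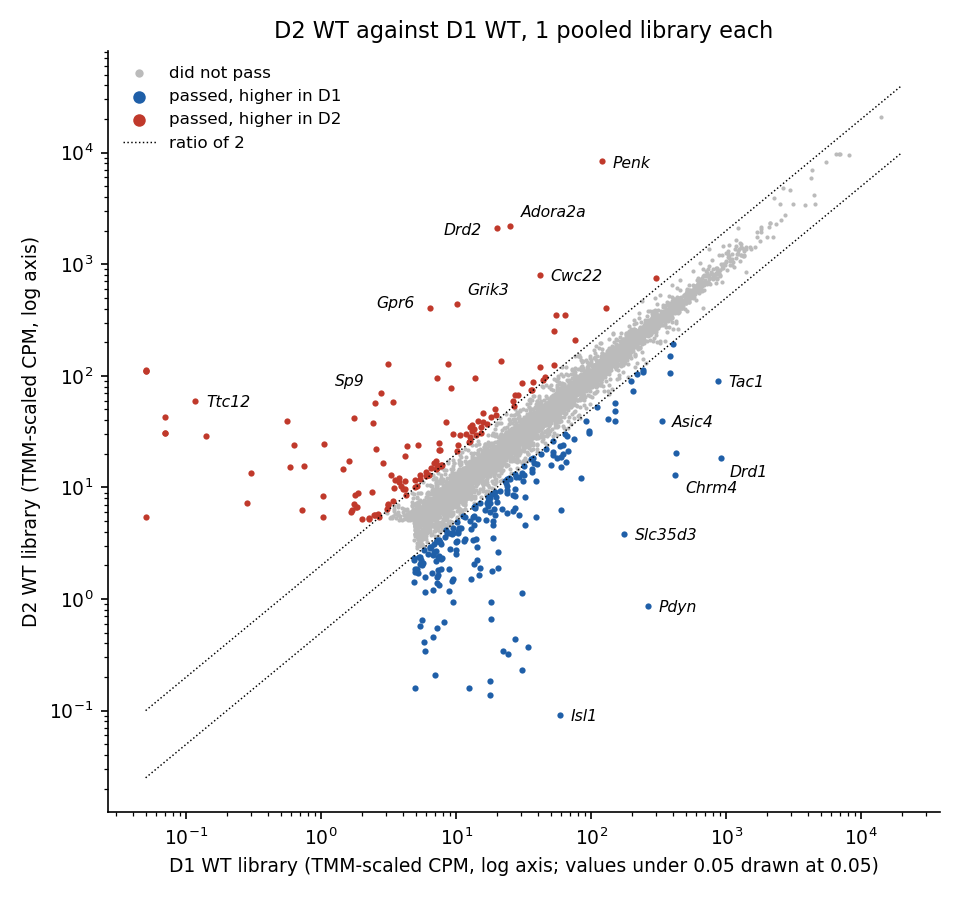
Level of each of the 10923 members in the D1 WT library (x axis) and the D2 WT library (y axis), both TMM-scaled CPM on log axes, 1 point per gene. Coloured points passed the rule of size, 134 higher in D2 and 205 higher in D1, and the dotted lines mark a ratio of 2. Drd2, Adora2a and Penk lie in the upper part far above the band, and Drd1, Pdyn and Isl1 below it.

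The sequences upstream of 3 genes that separated the pathways are shown because each encodes a receptor present almost wholly in one library: Drd1 in D1 cells, Drd2 and the orphan receptor gene Gpr6 in D2 cells. They are the 250 bases before the annotated start in RefSeq (GRCm38.p6), 5′ to 3′ on the gene's strand, at chr13:54055659-54055908 (minus strand) for Drd1, chr9:49340153-49340402 (plus strand) for Drd2 and chr10:41072291-41072540 (minus strand) for Gpr6. For Drd1 the table holds 2 starts and the one farther upstream was used. Penk and Adora2a are not in the table. Capitals mark the GC box GGGCGG, bound by Sp-family factors, in Drd1 and Drd2, and the cAMP response element TGACGTCA in Gpr6, each searched on both strands.
Drd1: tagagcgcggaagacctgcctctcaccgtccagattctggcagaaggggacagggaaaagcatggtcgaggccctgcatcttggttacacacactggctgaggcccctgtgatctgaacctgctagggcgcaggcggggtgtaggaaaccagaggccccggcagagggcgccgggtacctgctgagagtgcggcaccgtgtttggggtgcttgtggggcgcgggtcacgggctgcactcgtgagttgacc
Drd2: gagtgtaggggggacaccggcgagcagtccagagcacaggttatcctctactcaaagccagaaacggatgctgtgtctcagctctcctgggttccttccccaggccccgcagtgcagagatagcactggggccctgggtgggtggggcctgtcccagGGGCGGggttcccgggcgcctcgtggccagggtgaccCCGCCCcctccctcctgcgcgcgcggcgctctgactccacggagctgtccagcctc
Gpr6: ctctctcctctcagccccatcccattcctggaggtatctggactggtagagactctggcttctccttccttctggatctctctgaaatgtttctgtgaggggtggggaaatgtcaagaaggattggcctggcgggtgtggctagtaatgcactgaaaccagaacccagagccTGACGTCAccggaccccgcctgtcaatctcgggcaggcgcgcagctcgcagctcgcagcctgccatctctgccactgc

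The Drd2 window held 2 GC boxes, starting 93 and 56 bases before the start, the second on the opposite strand, and the Drd1 window held 0. A GC box lay in 32.7% of all 32851 RefSeq windows of this length and in 66.0% of the 8324 windows of members. It lay in 53 of 78 windows of genes higher in D2 (67.9%) and in 85 of 140 of genes higher in D1 (60.7%). The cAMP response element of Gpr6 started 78 bases before its start. That element lay in 1.55% of all windows, 3.40% of members' windows, 2 of 78 windows of genes higher in D2 and 4 of 140 of genes higher in D1. These matches are letters in the reference sequence and were not measured as binding.

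Across the members, 134 genes passed as higher in D2 WT (1.23%) and 205 as higher in D1 WT (1.88%). The counts of each gene class and list below are to be read beside these shares. The lists were chosen with earlier results of these data known, so the shares of a class describe it and do not test it. Most genes differed little, with a median log2 difference of 0.108 in size over the 10923 members. The ratio reached 4 for 50 genes higher in D2 and 61 higher in D1, and 16 for 27 and 20. Of the genes that passed, 60 higher in D2 and 109 higher in D1 were members through their higher library alone, which makes passing more likely. By the level in the higher WT library, 7.45% of members under 10 CPM passed, 2.84% of those between 10 and 100 CPM and 1.63% of those from 100 CPM up (20 genes higher in each cell type). Protein-coding genes made up 112 of the 134 and 190 of the 205.

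In the BACHD pair, 109 of the same members passed as higher in D2 (0.998%) and 206 as higher in D1 (1.89%). Of the 134 genes higher in D2 WT, 92 (68.7%) also passed there, and these were 84.4% of the BACHD list. Of the 205 higher in D1 WT, 168 (82.0%) also passed, 81.6% of the BACHD list. Every one of the 50 and 61 genes with a ratio of at least 4 in WT passed the same way in BACHD, and 0 genes passed in the opposite direction. Over all members the difference between the WT and the BACHD log2 ratio had a median size of 0.098, beside 0.108 for the size of the WT ratios themselves.

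At an edgeR adjusted p under 0.05 (n = 2 pools of each cell type, 1 of each genotype), the 4-library test called 825 of the members higher in D2 cells (7.55%). It called 1086 higher in D1 cells (9.94%). Over all 13400 genes it called 913 higher in D2 (6.81%) and 1359 higher in D1 (10.1%), and total-count scaling moved this to 735 and 2198. Among the genes that passed the rule of size in WT, 124 of the 134 and 203 of the 205 were called in the same direction. DESeq2 also called 122 and 196 of these. Both fits include the WT libraries by which these genes were chosen. The overlap was therefore partly fixed in advance and is not independent support.

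Receptors, and above all those for dopamine, adenosine and acetylcholine, held some of the widest differences. Of 111 receptor genes among the members, 12 passed as higher in D2 (10.8%, beside 1.23% of all members) and 13 as higher in D1 (11.7%, beside 1.88%). Of these, 12 and 12 passed in BACHD too. The counts include Drd1 and Drd2, the receptor genes of the reporters. They also include genes that were members through their higher library alone, such as Chrm3, Oprd1, Sstr2 and Sstr4. In the list of dopamine, adenosine and muscarinic receptors, 3 of 7 members were higher in D2 and 2 higher in D1. Adora2a, the adenosine receptor that raises cAMP in indirect pathway neurons, stood at 25.1 and 2208 CPM in D1 and D2 WT, and at 27.2 and 2058 in the BACHD pair. Its log2 ratio was 6.46 in WT (counting interval 6.37 to 6.55) and 6.24 in BACHD, and the cell type term was 6.35 ± 0.08 (SE, edgeR adjusted p = 7.97e-09). Chrm4, the Gi-coupled muscarinic M4 receptor, went the other way, at 413.5 and 13.0 CPM in D1 and D2 WT and at 386.2 and 9.93 in BACHD. The ratio was -4.99 in WT (-5.11 to -4.87) and -5.28 in BACHD. Chrm3, a Gq-coupled muscarinic receptor, was low everywhere but higher in D2, at 0.281 and 7.18 CPM in D1 and D2 WT and 1.07 and 6.67 in BACHD. The other muscarinic and adenosine members were near equal, with log2 ratios of 0.20 for Chrm1 and 0.05 for Adora1.

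Gpr6, a constitutively active orphan receptor that raises cAMP, stood at 6.41 and 405.9 CPM in D1 and D2 WT and at 5.45 and 324.1 in BACHD. Both D2 libraries stood far above both D1 libraries, by 63.3-fold in WT and 59.5-fold in BACHD (log2 ratios of 5.98 and 5.89). Of 29 orphan receptors, 2 passed as higher in D2 and 3 as higher in D1. The second on the D2 side was Gpr149 (1.35), and Gpr101 (-1.91), Gpr153 (-1.70) and Gpr26 (-1.07) were the 3 on the D1 side.

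Peptide, amine and opioid receptors were split between the pathways. Oprd1, the delta opioid receptor at which enkephalin acts, stood at 1.05 and 24.3 CPM in D1 and D2 WT and at 0.995 and 18.2 in BACHD (log2 ratio 4.53 in WT and 4.19 in BACHD). Its list of opioid, cannabinoid and histamine receptors had 5 members, and the other four did not pass. Among them Cnr1, the cannabinoid CB1 receptor, stood at 933 and 693 CPM in D1 and D2 WT (-0.43), and Hrh3, the histamine H3 receptor, at 262 and 377 (0.53). Of 6 serotonin receptors, only Htr4, which raises cAMP, passed, at 2.53 and 22 CPM in D1 and D2 WT (3.12). Htr2c stood at 71.6 and 115 CPM (0.68; edgeR adjusted p = 7.12e-05 for the cell type term).

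On the D1 side lay the somatostatin receptors Sstr4 (5.8 and 0.414 CPM in D1 and D2 WT, -3.81) and Sstr2 (20.4 and 1.91 CPM, -3.41), the melanocortin receptor Mc3r (-1.62) and the growth hormone receptor Ghr (-1.14). These were 4 of 14 peptide and hormone receptors. The stress peptide receptor Crhr1 was the 1 that passed as higher in D2 (7.06 and 17.2 CPM, 1.28). Both alpha-2 adrenergic receptors among the members, Adra2c (132.3 and 41.1 CPM, -1.69) and Adra2b (16.3 and 6.21 CPM, -1.39), were higher in D1, and Adrb1 did not pass (0.56). Ghr passed in the WT pair alone, with -0.69 in BACHD.

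Among ligand-gated channels, few members of each family passed. Grik3, a kainate receptor subunit, stood at 10.1 and 442.0 CPM in D1 and D2 WT and at 26.3 and 448.6 in BACHD. Its ratio was 5.45 in WT (5.31 to 5.59) and 4.09 in BACHD, where the D1 library stood higher. The other 11 ionotropic glutamate receptor members did not pass, and the AMPA subunit Gria2 (-0.02) and the NMDA subunit Grin1 (0.03) were near equal. Metabotropic glutamate receptors had 0 of 6 past the rule (median -0.04). Of 15 GABA and glycine receptor members, the GABA-A subunit Gabra3 was higher in D2 (5.17 and 24.1 CPM in D1 and D2 WT, 2.22) and Gabra5 higher in D1 (23.6 and 9.55 CPM, -1.30). The nicotinic subunit Chrna4 was higher in D2 (4.14 and 19.2 CPM, 2.21, and 1.06 in BACHD), and its common partner Chrnb2 was not (0.14). The Wnt receptors Fzd7 (-2.35) and Fzd1 (1.20) passed in opposite directions, as 2 of 11 adhesion and frizzled receptors.

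**Figure D2:**
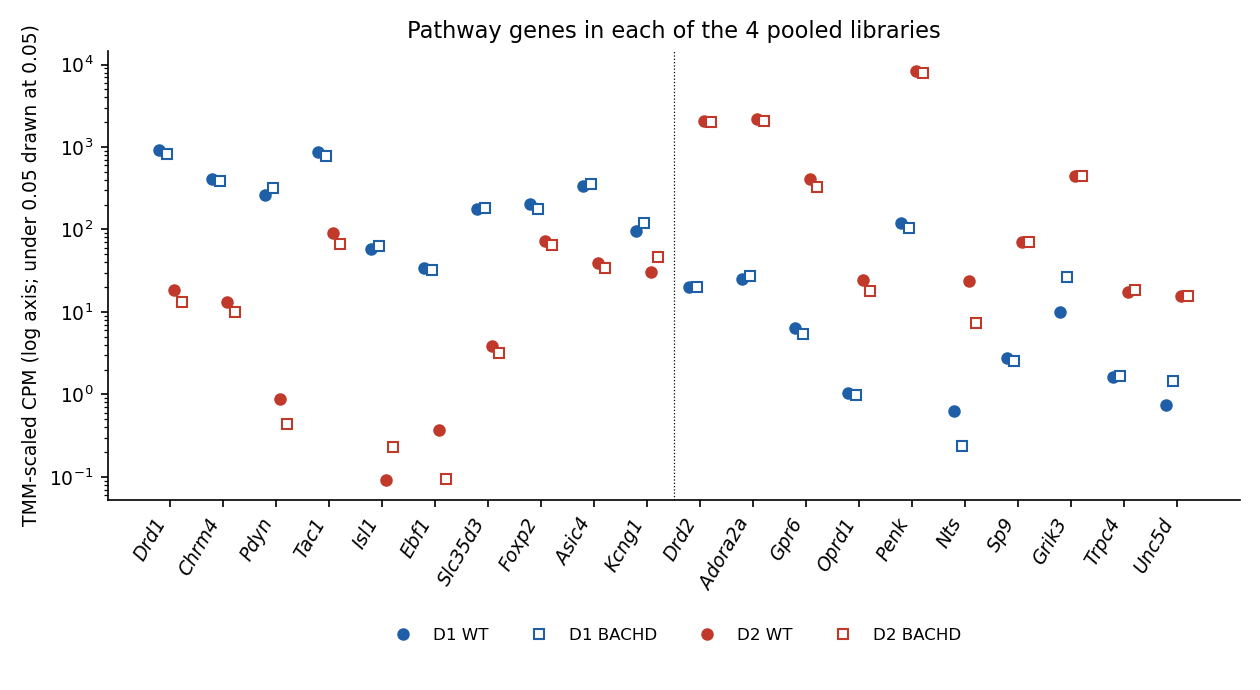
TMM-scaled CPM (log axis) of 20 pathway genes in each of the 4 pooled libraries, filled circles for WT and open squares for BACHD, D1 in blue and D2 in red. Genes higher in D1 stand left of the dotted line and genes higher in D2 right of it. For each gene the WT and BACHD libraries of one cell type lie on the same side of both libraries of the other.

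The peptide precursor of the indirect pathway had the highest level of any nuclear gene in its library. Scaled by gene length, Penk stood at 6021 FPKM in D2 WT (rank 1 among nuclear genes) and ranked 815 in D1 WT (93.8 FPKM). Tac1, the precursor of substance P, ranked 18 in D1 WT (885.1 FPKM) and 840 in D2 WT (87.8 FPKM), and Pdyn ranked 622 in D1 WT (113.1 FPKM). In D2 WT, Adora2a (850.4 FPKM) and Drd2 (812.0 FPKM) ranked 19 and 20. The order of the pathway genes within each library thus had the peptide precursor above the dopamine receptor for enkephalin and substance P, and Drd1 (265.8 FPKM) above Pdyn.

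Of 15 neuropeptide genes, 2 passed as higher in D2 and 4 as higher in D1. Tac1 stood at 870.7 and 90.7 CPM in D1 and D2 WT and at 771.3 and 65.8 in BACHD (-3.26 and -3.55). The D2 libraries thus kept 10.4% of the D1 level of Tac1 in WT, a larger share than for Pdyn. Nts, which encodes neurotensin, was higher in D2, at 0.632 and 23.8 CPM in WT and 0.237 and 7.27 in BACHD (5.23 and 4.94), although the D2 BACHD level lay below the D2 WT level. Npy (5.87 and 0.345 CPM in D1 and D2 WT, -4.09) and Sst (9.47 and 0.943 CPM, -3.33), the remaining pair on the D1 side, are also on the interneuron list described below. Scg5 (-0.03) and Vgf (0.03), granin-family genes, did not pass, nor did any of 6 peptide-processing enzymes, with Pcsk2 at 0.08 and Cpe at -0.01.

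Secreted growth factors had 30 members, 1 higher in D2 and 4 higher in D1. The ErbB4 ligand gene Nrg3 (9.94 and 2.76 CPM in D1 and D2 WT, -1.85), the chemokine gene Cxcl14 (36.1 and 13.7 CPM, -1.40), Igfbp4 (27.4 and 13.2 CPM, -1.05) and Bmp2 (10.1 and 4.92 CPM, -1.03) were higher in D1. Bmp7 was the D2 gene (5.99 and 12.6 CPM, 1.07). In BACHD, Cxcl14 (-0.66) and Bmp2 (-0.55) did not pass.

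Of 107 ion channel members, 2 passed as higher in D2 (1.87%, beside 1.23% of all members) and 6 as higher in D1 (5.61%, beside 1.88%). Asic4, an acid-sensing channel family member, had the highest level of the 8, at 333.4 and 39.4 CPM in D1 and D2 WT and at 352.9 and 33.8 in BACHD (-3.08 and -3.39). The other 16 chloride and acid-sensing members did not pass. Of 47 potassium channel genes, 3 were higher in D1: the leak channels Kcnk13 (14.6 and 1.63 CPM in D1 and D2 WT, -3.16) and Kcnk3 (7.23 and 3.38 CPM, -1.10), and Kcng1, a modifier of Kv2 channels (96.5 and 30.9 CPM, -1.64). Kcnd3, which encodes the A-type channel Kv4.3, was the 1 higher in D2 (13.0 and 36.1 CPM, 1.47), and it stood at 0.93 in BACHD. Kcnip2, among the highest means in that list, was near equal (0.03).

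The T-type calcium channel gene Cacna1g was the 1 of 21 calcium channel members to pass (8.84 and 1.84 CPM, -2.26), while its relative Cacna1h stood at 409 and 386 CPM in D1 and D2 WT (-0.08). Sodium channels had 0 of 10 past the rule, with Scn4b, a beta subunit abundant in striatum, at 2081 and 2163 CPM (0.06). Of 12 TRP, HCN and cyclic nucleotide channels, Trpc4 was higher in D2 (1.61 and 17.3 CPM in WT, 1.68 and 18.4 in BACHD, 3.42) and Trpv6 higher in D1 (14.2 and 2.92 CPM, -2.29). With the exception of Kcnd3, each of the 8 channel genes passed in the BACHD pair as well.

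Downstream of the receptors, the shared cAMP machinery was near equal and a few subunits were not. Ppp1r1b, which encodes DARPP-32, the integrator of dopamine signals in both pathways, stood at 3117 and 3470 CPM in D1 and D2 WT (0.15). None of 20 protein kinase A and DARPP-32 genes passed (median 0.01). Adcy5, the main striatal adenylyl cyclase (-0.03), Gnal, the G protein alpha subunit that couples dopamine D1 and adenosine receptors to it (0.15), Pde1b (0.00), Pde10a (0.15) and Rgs9 (-0.14) did not pass either. With total counts as the scale all ratios were lower by 0.07. Positive values smaller than this, here and elsewhere, thus turned negative with the scaling, and negative values moved further from 0.

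Of 75 signalling members, 3 passed as higher in D2 (4%, beside 1.23% of all members) and 6 as higher in D1 (8%, beside 1.88%). Gucy1a1, a subunit of the nitric oxide receptor guanylyl cyclase, stood at 127.6 and 405.8 CPM in D1 and D2 WT and at 131.1 and 399.5 in BACHD (1.67 and 1.61). Its partner subunit Gucy1b1 did not pass (198 and 263 CPM, 0.41). On the D1 side were the G protein subunits Gnb4 (59.9 and 15.1 CPM, -1.99) and Gnai1 (50.6 and 15.9 CPM, -1.66), the cyclase Adcy2 (-1.61), the phosphodiesterases Pde1a (-1.51) and Pde9a (-1.08), and Rgs12 (-1.13). In BACHD Pde9a did not pass (-0.99). Pde1a had a wider ratio there (-3.24), with a higher D1 level (13.0 CPM, beside 4.98 in D1 WT). Rgs16 was higher in D2 (1.24). Gnas (21.6 and 134.9 CPM, 2.64, and 1.37 in BACHD) also passed, but it overlaps Gm20721 (3.08) on chromosome 2, and reads may have been assigned to either.

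**Figure D3:**
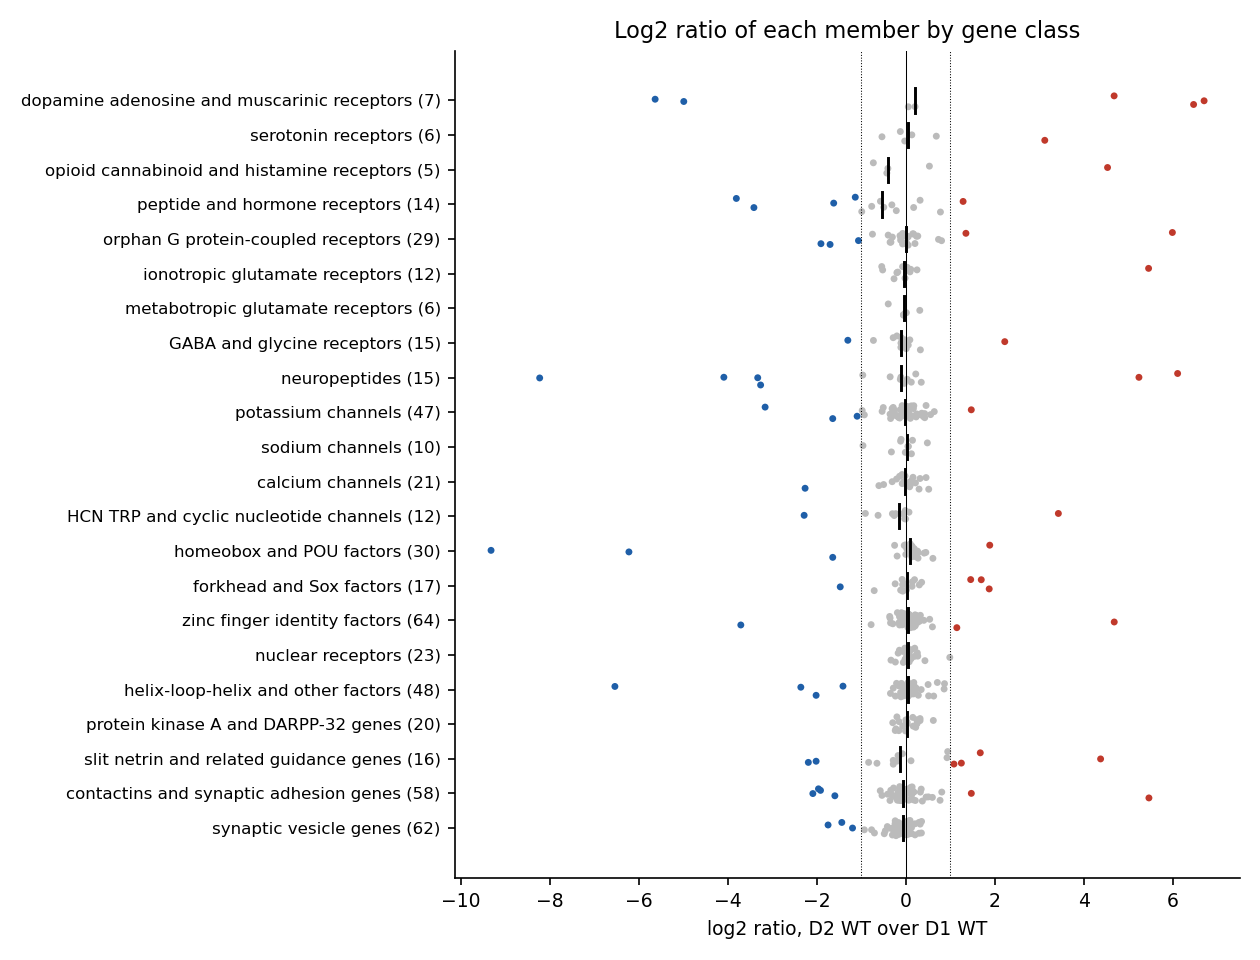
Log2 ratio of D2 WT over D1 WT for each member of 22 gene lists, 1 point per gene, with the number of members in brackets and a bar at each list's median. Dotted lines mark a ratio of 2; blue and red points passed as higher in D1 and D2, and grey points did not pass. The list medians lie between -0.53 and 0.20, and the points beyond the dotted lines are single genes of each list.

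Transcription factors included the gene with the largest D1 difference of all members, Isl1. Of 182 members, 6 passed as higher in D2 (3.30%, beside 1.23% of all members) and 9 as higher in D1 (4.95%, beside 1.88%). Isl1, a LIM-homeobox factor required for direct pathway neurons, stood at 58.7 and 0.092 CPM in D1 and D2 WT (2510 and 4 counts) and at 63.8 and 0.233 in BACHD. The ratio was -9.32 in WT (-11.19 to -7.96) and -8.10 in BACHD. Ebf1, an early factor of direct pathway differentiation, stood at 34.2 and 0.368 CPM in D1 and D2 WT and at 32.2 and 0.093 in BACHD (-6.54 and -8.43). In both genes the D2 libraries were near the level of a few counts.

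On the D1 side lay also Ikzf1, a zinc finger factor (8.12 and 0.621 CPM, -3.71), Eya1, a transcriptional coactivator (28.9 and 5.64 CPM, -2.36), Cbfa2t3 (-2.02), Onecut2 (151.0 and 48.3 CPM, -1.64), Foxp2, a forkhead factor (203.2 and 73.1 CPM in WT, 179.5 and 64.3 in BACHD, -1.47), and Tox3 (-1.41). All but Tox3 (-0.99) passed in BACHD. Sp9, a zinc finger factor required for indirect pathway neurons, was the largest on the D2 side, at 2.76 and 70.7 CPM in D1 and D2 WT and 2.51 and 71.0 in BACHD (4.68 and 4.82).

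The D2 side held further Dlx1 (1.68 and 6.21 CPM, 1.88), Sox9 (1.82 and 6.67 CPM, 1.87), Sox2 (3.77 and 12.2 CPM, 1.69), Foxo6 (12.7 and 34.7 CPM, 1.46) and Zfp703 (1.14, and 0.67 in BACHD). Dlx1 stood at 2.27 and 2.17 CPM in D1 and D2 BACHD (-0.07), and Sox9, also an astrocyte marker, at 0.96, so that of these only Sox2 and Foxo6 passed in both pairs. The factors common to medium spiny neurons were near equal, with Bcl11b (Ctip2) at 409 and 419 CPM (0.03) and Meis2 at 0.20. Foxp1, the relative of Foxp2, stood at 458 and 585 CPM (0.35; edgeR adjusted p = 0.00627 for the cell type term). None of 23 nuclear receptor genes passed, with Thra at -0.02 and Nr4a1 just under the limit at 0.99.

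Genes for wiring and adhesion had 9 of 137 members higher in D2 (6.57%, beside 1.23% of all members) and 10 higher in D1 (7.30%, beside 1.88%). Of these, 6 and 8 passed in BACHD too. In the family of slit, netrin and related guidance genes, the netrin receptors Unc5d (0.749 and 15.5 CPM in D1 and D2 WT, 4.37) and Unc5c (9.52 and 30.3 CPM, 1.67), the ligand Slit2 (4.96 and 11.8 CPM, 1.25) and Rgma (1.08, and 0.92 in BACHD, where it did not pass) were higher in D2. Its ligands Ntn4 (7.25 and 1.59 CPM, -2.19) and Slit1 (18.7 and 4.62 CPM, -2.02) were higher in D1. Unc5a (-0.08) and Robo2 (170 and 109 CPM, -0.65) did not pass. Slit2 and Slit1, which share the Robo receptors, thus stood in opposite directions, and both did so in BACHD (1.31 and -1.84).

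The list of semaphorins, plexins and neuropilins had 26 members. Plxdc1, a plexin domain-containing gene that is not itself a plexin (8.66 and 127.3 CPM in D1 and D2 WT, 3.88), passed as higher in D2 WT. Sema5a (1.19) and Sema3e (35.8 and 74.2 CPM, 1.05) did so too. Sema3a (17.9 and 5.98 CPM, -1.58) and Sema4a (51.9 and 25.9 CPM, -1.0) passed as higher in D1 WT. Of these 5, Plxdc1 and Sema3a passed in BACHD, where Sema5a stood at 0.29, Sema3e at 0.70 and Sema4a at -0.74. The cell type term of Sema5a did not reach the threshold either (edgeR adjusted p = 0.0684). Sema4a lay at the limit and did not pass with DESeq2 size factors. Of 58 contactins and synaptic adhesion genes, Slitrk6 was higher in D2 (0.304 and 13.4 CPM, 5.46). The neurexin gene Nrxn2 was also higher in D2, at 75.2 and 208.1 CPM in D1 and D2 WT (1.47) and at 70.6 and 206.6 in BACHD. Cntnap3 (-2.09), Igsf21 (-1.96) and Clstn2 (-1.60) were also higher in D1. Of 24 cadherins and protocadherins Cdh22 passed (-1.59), and of 13 Eph receptors and ephrins Epha10 (-1.09, and -0.83 in BACHD).

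Synaptic vesicle genes had 3 of 62 members past the rule, all higher in D1: Syt13 (7.88 and 2.35 CPM, -1.75), Rab3b (74.2 and 27.4 CPM, -1.44) and Rims3 (66.6 and 29.0 CPM, -1.20). Rab3b did not pass in BACHD (-0.95), and Syt13 stood at -3.21 there, with 22.7 CPM in D1 BACHD. The most abundant, Snap25, stood at 2004 and 1736 CPM (-0.21) and Cplx2 at 1258 and 1065 (-0.24), and neither passed.

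The marker lists show the size of the difference and do not test it, since they were chosen with earlier results of these data known. All 12 direct pathway members passed as higher in D1 and 10 of 11 indirect pathway members as higher in D2, in both pairs. Over all members the WT shares were 1.88% and 1.23%. The lists include Drd1 and Drd2, the receptor genes of the reporters, and Sfxn1 and Ttc12, which lie near them. The exception, Gprin3, stood at 10.1 CPM in both WT libraries (0.01) and at 7.01 and 7.37 in BACHD (0.07). Beside those given above, Slc35d3, a sugar transporter-like gene, stood at 176.1 and 3.84 CPM in D1 and D2 WT (-5.52) and Upb1, which encodes a pyrimidine-degrading enzyme, at 0.585 and 15.1 CPM (4.69). Of 20 markers shared by both kinds of medium spiny neuron, 19 did not pass, and the one that did was Tac1, which is on both lists. In the striosome list, 6 of 9 members did not pass, Pdyn and Tac1 were higher in D1 and Nnat higher in D2 (43.7 and 92.0 CPM, 1.07, and 0.53 in BACHD), and none of 8 matrix markers passed (median 0.19).

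Outside the gene classes, the largest D1 differences included Tpm3-rs7 (30.5 and 0.230 CPM in D1 and D2 WT, -7.05), Lingo2, which encodes a leucine-rich repeat membrane protein (17.7 and 0.184 CPM, -6.59), Il20ra (22.2 and 0.345 CPM, -6.01) and Vcp-rs (-5.96). Tpm3-rs7 and Vcp-rs are related-sequence copies of other genes, whose reads the counting could have split. On the D2 side 6 of the 10 largest ratios belonged to identifiers that carry no symbol. Each of the 6 had 10 counts in D1 BACHD and 0 or 3 in D1 WT. ENSMUSG00000092146, ENSMUSG00000091729 and ENSMUSG00000090524 had 4760, 4759 and 4932 counts in D2 WT. Whether the 6 are separate genes or share reads was not tested. ENSMUSG00000090524 had 0 counts in D1 WT and 113.5 CPM in D2 WT, at least 1617-fold higher against a floor of 3 counts, and 10 counts in D1 BACHD. ENSMUSG00000092146 had 0 counts in D1 WT and 109.5 CPM in D2 WT. Cwc22, a splicing factor gene on chromosome 2 (77881159 to 77946375, GRCm38), was named after its values were seen. It stood at 41.9 and 805.6 CPM in WT and at 43.0 and 834.2 in BACHD (4.27 and 4.28). For Cwc22 and the 6 identifiers, a difference between the reporter lines and one between the cell types cannot be told apart.

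Genes beside the receptor genes of the reporters differed with them. On chromosome 9, Drd2 (49340627 to 49408177, GRCm38) is followed by Ankk1 (49415194 to 49427021), a kinase gene at 0.140 and 28.7 CPM in D1 and D2 WT (7.68), and Ttc12 (49436963 to 49486225) at 0.117 and 59.2 CPM (8.98). Tmprss5 within 250 kb was not a member (0.164 and 3.08 CPM), and Ncam1 did not differ by the rule (0.03). On chromosome 13, Sfxn1 (54071869 to 54108342), a mitochondrial serine transporter gene beside Drd1 (54051183 to 54055705), stood at 423.1 and 20.5 CPM in D1 and D2 WT and at 458.0 and 21 in BACHD (-4.37 and -4.45). Reporter line and cell type change together in all 4 libraries, so a contribution of the transgene to these genes and that of cell identity cannot be told apart.

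Over the genome, 40 of 324 genes that passed and had coordinates (12.3%) had another gene past the rule in the same direction within 50 kb. Of 10354 members that did not pass, 3.49% had any passed gene that near. Among the 24 such pairs, Chrm4 lies 1117 bases from Mdk, a growth factor gene (8.80 and 1.17 CPM, -2.91), and 4136 bases from Dgkz, a diacylglycerol kinase gene (381.9 and 106.0 CPM, -1.85). Fxyd5 (-2.80) and Fxyd7 (-2.85), regulators of the sodium pump, lie 32 bases apart. Penk overlaps A830012C17Rik (6.13), so that their reads may not be separable. Genes of these pairs outside the lists were named after their values were seen.

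Activity genes stood higher in the D2 WT pool than in the D1 WT pool, and the BACHD pools did not differ in this way. Of 19 immediate early genes, induced by neuronal activity and by handling of tissue, 4 passed as higher in D2 WT (21.1%, beside 1.23% of all members). Of the 19, 18 stood above 0 (median 0.71), beside 5380 of all 10923 members. Fos had 30.8 and 85.5 CPM in D1 and D2 WT and 48.9 and 41.2 in D1 and D2 BACHD. Arc stood at 303.9 and 759.6 CPM in WT and at 451.0 and 460.2 in BACHD. Fos, Arc, Btg2 (1.45, and -0.07 in BACHD) and Egr2 (1.29, and -0.03 in BACHD) were the 4, and the D2 WT library was the highest of the 4 libraries for each. In BACHD 0 passed, 5 of 19 stood above 0 and the median was -0.13. Summed over the list, the WT pair stood at 2236 (D1) and 3691 CPM (D2) and the BACHD pair at 2724 (D1) and 2557 CPM (D2).

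All 19 mitochondrially encoded members stood higher in D2 WT than in D1 WT, beside 5380 of all 10923 members. Their median was 0.65, with none of them past a ratio of 2. In BACHD all 19 stood higher in D2 with a median of 0.31. They summed to 57271 (D1) and 85740 CPM (D2) in WT and to 78569 (D1) and 95517 CPM (D2) in BACHD. D1 WT was thus the library with the least mitochondrial RNA, and the part this has in the differences between the WT libraries was not tested.

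**Figure D4:**
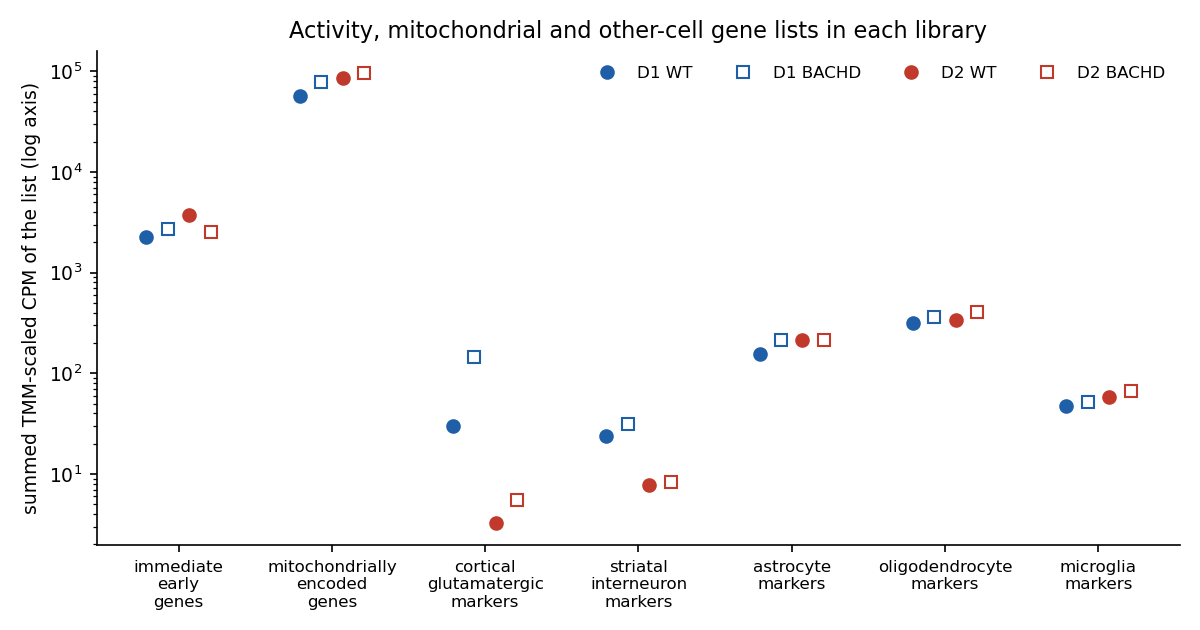
Summed TMM-scaled CPM (log axis) of 7 gene lists in each of the 4 pooled libraries, filled circles for WT and open squares for BACHD, D1 in blue and D2 in red. D2 WT is highest for immediate early genes, and both D1 libraries lie above both D2 libraries for cortical glutamatergic and striatal interneuron markers.

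Markers of other cells were present at low levels and not equally. The 9 cortical glutamatergic markers summed to 29.8 and 3.27 CPM in D1 and D2 WT (145.4 and 5.55 in BACHD), with 1 of the 9 at 0 counts in D1 WT and 2 in D2 WT. Slc17a7, the vesicular glutamate transporter and their only member gene, stood at 18.0 and 0.667 CPM (-4.75), and at 85.1 in D1 BACHD. Of 11 measured interneuron markers, 3 were members, and the list summed to 24.0 and 7.82 CPM in D1 and D2 WT (31.4 and 8.28 in BACHD). Npy and Sst passed as higher in D1, as given above, and Nos1 did not (5.97 and 4.35 CPM). These values stand beside the D1 calls of the same genes and of low-level genes generally, and their part in those calls was not tested.

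Glial markers leaned the other way by less. Of 6 astrocyte members all stood above 0 in WT (median 0.52), beside 5380 of all 10923 members, and Sox9 alone passed. The summed level of the list was 154.3 and 214.3 CPM in D1 and D2 WT. In BACHD the median of these members was -0.07, with sums of 212.2 and 213.6 CPM. Oligodendrocyte markers summed to 314.2 and 338.1 CPM in D1 and D2 WT, precursor markers to 36.9 and 46.0, and microglia markers to 47.7 and 58.7, with none past the rule among 8 members. Endothelial and ependymal lists had no member.

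**Figure D5:**
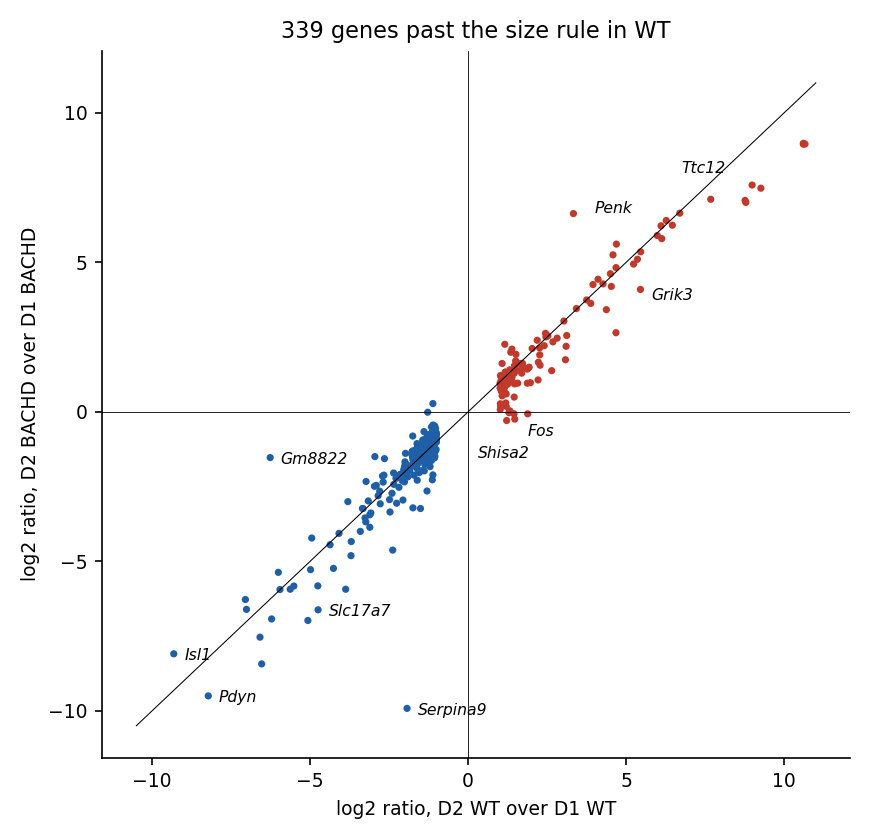
Log2 ratio of D2 over D1 in the WT pair (x axis) and in the BACHD pair (y axis) for the 339 genes that passed the rule of size in WT, red for higher in D2 and blue for higher in D1. The line marks equal ratios. Most genes lie near it, Serpina9 and Gm8822 lie far from it, and Fos and Shisa2 lie just below 0 on the y axis.

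The pairs differed most at a few genes. Serpina9, a serpin gene, stood at 64.6 and 16.9 CPM in D1 and D2 WT and at 67.8 and 0.047 in D1 and D2 BACHD, with log2 ratios of -1.93 in WT and -9.92 in BACHD. The D2 WT library held 734 counts of it and the D2 BACHD library 2. Gm8822 had its wider ratio in WT, at 12.4 and 0.161 CPM in WT and 11 and 3.8 in BACHD (-6.27 and -1.53). Vxn stood at 7.23 and 1.38 CPM in WT and 25.9 and 1.05 in BACHD (-2.39 and -4.63). Each of these differences rests on 1 library, and with 1 pool per group the difference between the pairs was not tested.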

How the data were processed

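Per the series' design text, sequencing was on an Illumina HiSeq 2000 with paired 50-base reads. The submitters' processing notes name CASAVA 1.8.2. No genome build, annotation, aligner, counting tool or strand setting is named, these being not given in the sources used here. The authors deposited 1 estimated count per gene and library (19.4% of entries were not whole) and FPKM values, in which a gene's length and the library's size are divided out. Reads shared by paralogs, pseudogenes, overlapping genes or antisense partners are of uncertain assignment.

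Estimated counts were rounded. Symbols matched 32897 of 37620 identifiers, and 245 members have none. Coordinates come from GENCODE M21 (GRCm38), perhaps not the authors' build. TMM factors came from the 13400 genes with at least 1 CPM in 2 or more libraries, the genes of the 4-library fit (edgeR 4.0.16, R 4.3.3; Benjamini-Hochberg adjustment; median of 6.63 prior degrees of freedom). An SE is the size of the log2 change over the root of its F value. The labels do not say whether the pools of a cell type were made or sorted together. No group has a replicate pool. The p-values therefore rest on how far the cell type difference changed between genotypes, with variance estimates shared across genes. They do not measure the spread between replicate pools.

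The comparison, its members and its 50 gene lists were chosen with earlier results of these data known. Named genes were Drd1, Pdyn, Drd2 and Penk, the 10 largest ratios each way at 10 CPM or more, all pathway markers, up to 4 members per list past the rule each way and up to 2 that did not pass, the 10 genes whose ratio differs most from the BACHD pair, and genes within 250 kb of Drd1 or Drd2. Others are said to have been chosen after their values were seen. A few genes that this rule selects are not reported here.

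Both procedures were run on simulated data. For the rule of size these held counting error only, and for the 4-library test the spread that the fit itself had estimated. Neither simulation can therefore show how the procedures handle the spread between pools. Alternatives were total-count scaling, DESeq2 1.42.0, other expression limits and ratios, FPKM with pseudocounts of 0.1 and 1, limma-trend (limma 3.58.1) on log2 FPKM, a model of cell type alone, a looser adjusted p (0.1) and the removal of each library in turn.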

Additional observations from a re-analysis of the deposited data

Results flagged for a closer look

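For 2 genes that passed the rule of size in WT, the counting interval of the D2 over D1 ratio lay above 0 in WT and below 0 in BACHD. Fos, an immediate early gene, had a log2 ratio of 1.47 in WT and -0.25 in BACHD, so that the BACHD minus WT value was -1.72. Shisa2, at 10.2 and 23.8 CPM in D1 and D2 WT and 15.2 and 12.4 in D1 and D2 BACHD, had 1.22 and -0.29, a BACHD minus WT value of -1.51. Of the 339 genes that passed in WT, 6 had the opposite sign in BACHD, whether or not the interval excluded 0. With 1 pool per group the difference between the pairs was not tested for either gene. The summed level of all immediate early genes moved with Fos, as given above, and its part in the values of Shisa2 was not tested.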

How the results depend on the processing

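The counts of 134 genes higher in D2 WT and 205 higher in D1 WT became 242 and 447 with a limit of 1 CPM, 310 and 450 at a ratio of 1.5, and 50 and 61 at a ratio of 4. They were 81 and 145 with FPKM plus 1 and 112 and 217 with FPKM plus 0.1, both without a counting interval. Total-count scaling gave 115 and 230, DESeq2 size factors 137 and 202, and a limit of 10 CPM 104 and 140, all within 1.5 times. In the 4-library test, 913 and 1359 calls became 735 and 2198 with total counts, 565 and 765 with DESeq2, 551 and 896 in a model of cell type alone, 312 and 498 without the expression filter, and 536 and 1410 with limma-trend on FPKM plus 0.1. An adjusted p under 0.1 gave 1310 and 1762. Leaving out 1 library, in that model of cell type alone and with a lone pool assumed to vary like the others, gave 313 to 660 calls higher in D2 and 503 to 984 higher in D1. Without D2 WT they were 313 and 503, without D2 BACHD 335 and 549, and without D1 WT 583 and 984. The cause of these changes was not tested. The log2 ratios of many of the 209 named genes left their main counting interval: 80 with total counts, 104 with FPKM plus 0.1, 181 with FPKM plus 1 and 2 with DESeq2 size factors. None of those that passed changed sign under these settings. Scaling alternatives for the lists, added after the data were seen, changed 3 list counts by more than 1.5 times: potassium channels higher in D1 became 5 and sodium channels higher in D1 became 1 with total counts, and semaphorins higher in D1 became 1 with DESeq2 size factors. No paired analysis was possible because each group is 1 library and the labels give no replicate numbers. Depth limits the low values: a gene with a few counts in one library has a wide interval, as for Isl1, and no interval covers the spread between pools.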

Other observations

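Genes of adenosine and nucleotide handling outside the lists, described here after their values were seen, included several that passed as higher in D2 WT. Nt5e, the ecto-enzyme that makes adenosine from AMP, stood at 1.75 and 42.0 CPM in D1 and D2 WT and at 1.33 and 50.4 in BACHD (log2 ratio 4.58 and 5.25). Adk, which encodes adenosine kinase, stood at 8.44 and 38.4 CPM in D1 and D2 WT (2.19), and P2ry1, an ADP receptor gene, at 2.43 and 37.6 CPM (3.95). Both passed in BACHD too (2.39 and 4.26). Entpd1, an ecto-enzyme that degrades ATP and ADP, passed as higher in D1 WT (23.2 and 10.9 CPM, -1.09), and stood at -0.63 in BACHD. Their number was not set against that of all genes of nucleotide handling.

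Of further genes outside the lists, also chosen after their values were seen and set against no list or share, 2 are given as higher in D2 WT and 5 as higher in D1 WT. Necab1, a calcium-binding protein gene, stood at 64.3 and 350.4 CPM in D1 and D2 WT and at 48.5 and 298.8 in BACHD (2.45 and 2.62). Hpcal1 (12.9 and 1.5 CPM, -3.11), Vsnl1 (20.0 and 7.43 CPM, -1.42) and Ncald (6.39 and 2.95 CPM, -1.12), all of the visinin-like family, were higher in D1 WT, as was Ryr1, a calcium release channel gene (381.8 and 149.9 CPM, -1.35). B3gat1, which makes the HNK-1 carbohydrate of cell adhesion proteins, stood at 55.1 and 353.7 CPM (2.68), and Reln, the secreted guidance protein reelin, at 240.7 and 109.2 CPM (-1.14). All 7 passed in the BACHD pair in the same direction.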
